A study of Homo sapiens with 12 samples.

Results

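The genes described here are 10 interferon-induced genes: IFI6, IFI27, IFI35, IFI44, IFI44L, RSAD2, BST2, IFITM1, IFITM2 and IFITM3. They were chosen by name, not by their values, from the 16383 genes of the deposited table, and all 10 are listed there. RNA was captured by its poly(A) tail from IMR90 cells, a line of human lung fibroblasts labelled as wild type, and sequenced in 12 libraries. Proliferating cells (3 libraries, A125 to A127) had received no treatment. The other 9 libraries came from cells made senescent with 20 Gy of ionizing radiation, given over 10 min and harvested on day 11 afterwards. Of these, 3 libraries (A116 to A118) came from cells given DMSO, 3 (A119 to A121) from cells given 2 µM palbociclib, an inhibitor of the kinases CDK4 and CDK6, and 3 (A122 to A124) from cells given 2 µM ruxolitinib, an inhibitor of the Janus kinases JAK1 and JAK2. Treatment began on day 4 and was repeated on days 6, 8 and 10. The labels give no solvent or harvest day for proliferating cells, so irradiation cannot be told apart from these. No label says that the 3 libraries of a group came from separate cultures, so p-values measure the spread between these libraries only.

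Type I interferon binds a receptor made of IFNAR1 and IFNAR2, whose kinases JAK1 and TYK2 activate the transcription factor complex ISGF3. This complex, which includes STAT2 and IRF9, binds a short promoter element, the interferon-stimulated response element (ISRE), and switches on interferon-stimulated genes. IFITM1, IFITM2 and IFITM3 are membrane proteins that hinder the entry of enveloped viruses, BST2 (tetherin) holds budding virions at the cell surface, and RSAD2 (viperin) makes a nucleotide that stops viral RNA synthesis. IFI6 and IFI27 are small related membrane proteins of the endoplasmic reticulum and mitochondria, IFI44 and IFI44L are related cytoplasmic proteins, and IFI35 is a partner of NMI. Interferon-stimulated genes are known to be expressed in senescent fibroblasts, where the DNA sensor cGAS can start interferon production.

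In normalised read counts, the unit of the table, most of the genes were low in proliferating cells, high in senescent cells given DMSO, and lower again with either inhibitor. IFITM3 was already high in proliferating cells, with a mean of 2566, and had means of 7399.9 with DMSO and 3953 with palbociclib. The proliferating and DMSO levels of IFITM2 overlapped, and IFI27 was almost undetected outside 1 library. In DMSO libraries the 10 genes took 0.135 to 0.146% of all reads of listed genes, against 0.0215 to 0.0267% in proliferating libraries. Palbociclib libraries gave 0.0246 to 0.0383% and ruxolitinib libraries 0.0185 to 0.0201%. The plot of levels by library shows each gene in this order.

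**Figure D1:**
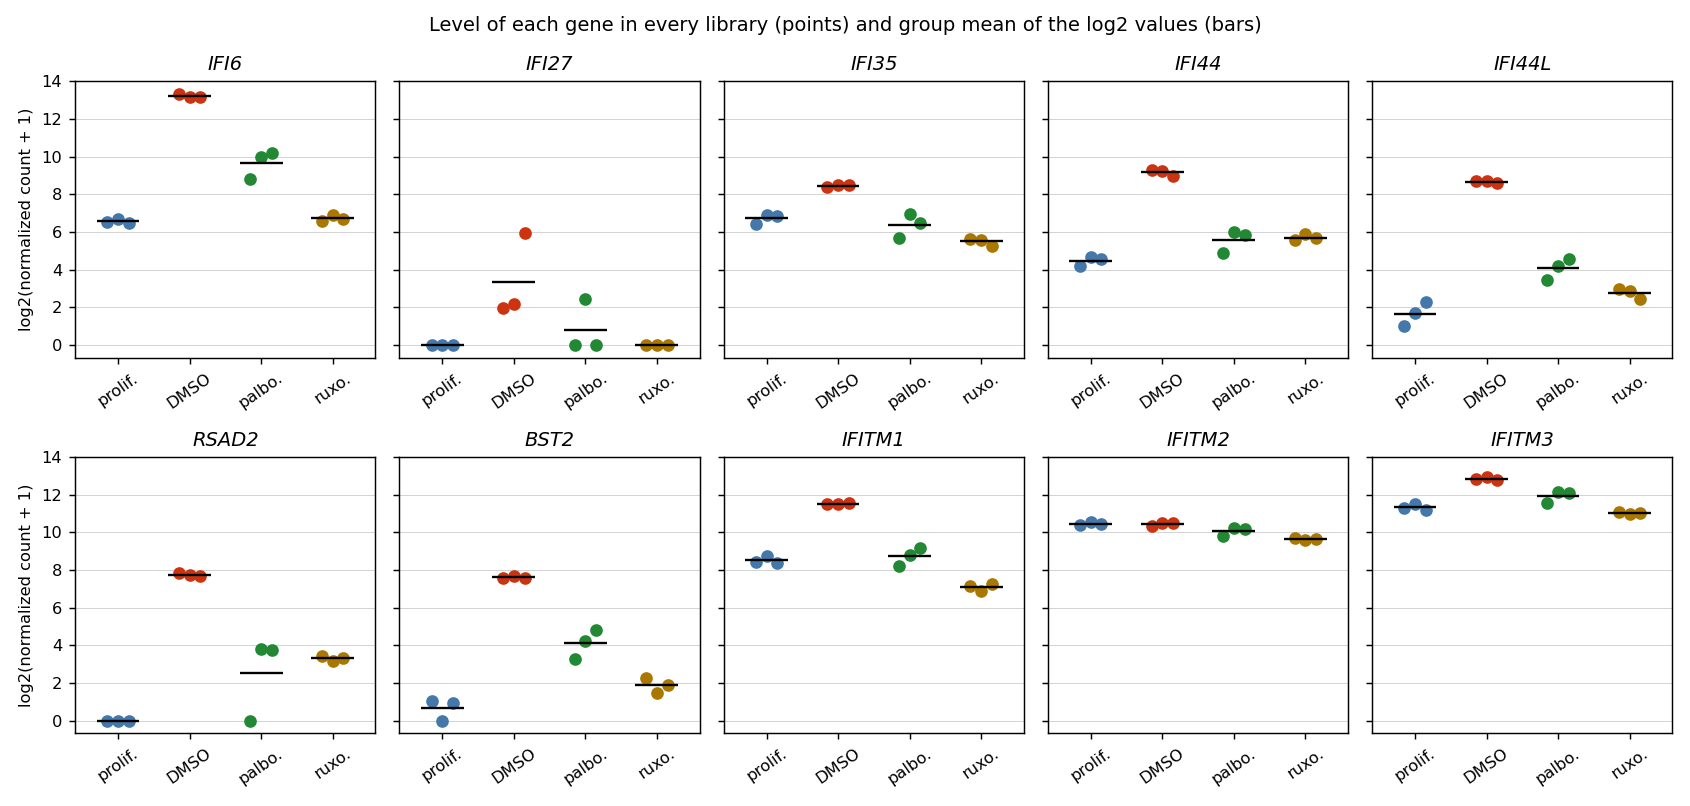
Level of each gene in every library, as log2(normalised count + 1) on the vertical axis, for proliferating, DMSO, palbociclib (palbo.) and ruxolitinib (ruxo.) cells; points are libraries in order of library number and bars are group means of the log2 values. The 3 DMSO points lie above all other points for each gene except IFITM2 and IFI27, and the first palbociclib point (library A119) is the lowest of its group in 9 of 10 genes.

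The promoters of these genes were searched for the ISRE core, GAAA followed by 2 bases of any kind (NN) and GAAA again, on both strands of the RefSeq windows from 250 bases before to 50 bases after each annotated start (GRCh38.p14). Of the 9 genes with a window, 8 held a match in at least 1 window, whereas 3.57% of the 35116 promoters in the same table did. Counted by gene, 4.18% of the 12425 genes of the deposited table that have a window held one. IFITM2 has no entry in the promoter table. IFI35 held no match, although it too was higher with DMSO and lower with each inhibitor. The stretches below come from genes with a match, leaving out IFI27 and RSAD2, and they show how differently the matches are arranged. Each reads 5′ to 3′ along the gene's own strand, and capitals mark the ISRE matches, which in BST2 overlap.
IFI6, chr1:27672256-27672368, minus strand: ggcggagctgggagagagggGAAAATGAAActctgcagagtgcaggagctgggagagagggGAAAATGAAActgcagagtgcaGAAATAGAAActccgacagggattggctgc
IFI44, chr1:78649751-78649788, plus strand: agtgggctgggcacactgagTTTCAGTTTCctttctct
IFI44L, chr1:78620274-78620303, plus strand: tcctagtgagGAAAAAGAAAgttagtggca
BST2, chr19:17405738-17405767, minus strand: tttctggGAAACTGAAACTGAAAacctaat
IFITM1, chr11:313990-314019, plus strand: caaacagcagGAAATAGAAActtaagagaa
IFITM3, chr11:320866-320932, minus strand: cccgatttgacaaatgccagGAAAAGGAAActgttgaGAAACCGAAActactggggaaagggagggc

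IFI6 held 3 matches, between 156 and 84 bases before its start, the first and second of them inside a repeated stretch. IFI44 carried 1, reading on the opposite strand, whose first base lay 18 bases before the first of its annotated starts. IFI44L carried 2, and the 30 bases printed around its match at 164 bases before the start recur letter for letter around its match at 73 bases before the start. BST2 held 2 that share part of their letters, from 130 to 115 bases before the start. IFITM1 held 2, of which the one not printed spans the start itself, and IFITM3 held 2 within 52 bases of its start. IFI27 held 2 in each of its windows, RSAD2 held 1 at the second of its annotated starts and 0 at the first, and IFI35 held 0. The gamma-activated sequence (GAS), written TTCNNNGAA, matched in 4 genes (IFI27, IFI35, BST2 and IFITM1), and in IFI27, BST2 and IFITM1 a GAS match overlapped an ISRE match. In all, 7.66% of the promoters in the table held a GAS match. Counted by gene, 9.13% of the 12425 genes of the deposited table that have a window held one. A match describes letters and is not shown here to be bound by any factor. The map of motif matches gives their distances from each start.

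**Figure D2:**
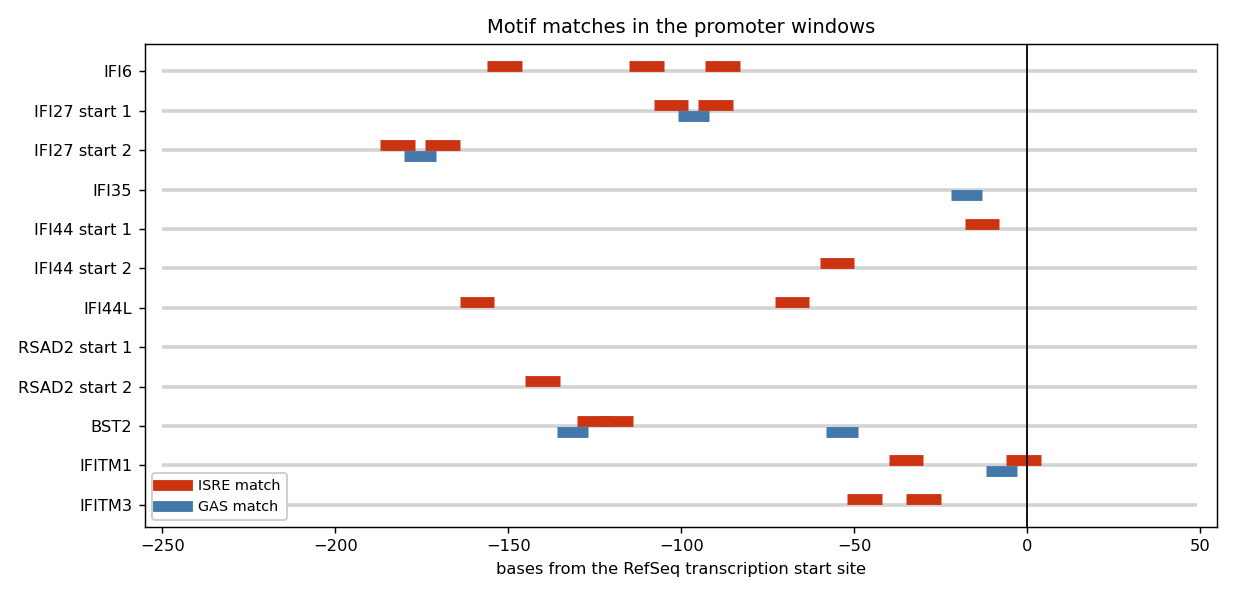
Positions of ISRE matches (red) and GAS matches (blue) along the promoter windows of 9 genes, in bases from the RefSeq start on the horizontal axis; genes with more than 1 annotated start have 1 line per start. IFI6 shows 3 ISRE matches, and IFI35 and the first RSAD2 start show 0.

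Several of these genes lie side by side or share sequence, which bears on how reads could be assigned to them. In the GENCODE release 44 annotation of GRCh38, IFI44L (chr1:78619902-78646145, plus strand, 9 exons) ends 3650 bases before IFI44 (chr1:78649796-78664078, plus strand, 9 exons). IFITM2 (chr11:303655-309397, plus strand, 2 exons), IFITM1 (chr11:310041-315272, plus strand, 2 exons) and IFITM3 (chr11:319676-329475, minus strand, 2 exons) form one cluster, with 643 bases between the first pair and 4403 between the second. The other members are IFI6 (chr1:27666064-27672212, minus strand, 5 exons), IFI27 (chr14:94104836-94116695, plus strand, 5 exons), IFI35 (chr17:43006740-43014456, plus strand, 7 exons), RSAD2 (chr2:6865557-6898239, plus strand, 6 exons) and BST2 (chr19:17402939-17405630, minus strand, 5 exons).

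To measure shared sequence, each canonical transcript was broken into all its overlapping words of a fixed length, and each word was looked up in the transcripts of every other gene. At 50 bases, 55.1% of the words of IFITM1 occurred elsewhere, 20.8% of those of IFITM3 and 12.02% of those of IFITM2. For IFITM1, 50.7% were in ENSG00000288681, a protein-coding gene model annotated over it on the same strand, 15.8% in IFITM3 and 8.08% in IFITM2. IFI6 shared 21.9%, all with LINC02574, a long non-coding RNA annotated on the same strand that overlaps 23.1% of its exon bases. RSAD2 shared 0.774%, and IFI27, IFI35, IFI44, IFI44L and BST2 shared 0. RSAD2 also overlaps CMPK2, on the opposite strand, over 6.203% of its exon bases. The read length and the handling of strand are not given in the sources used here, so values of the IFITM genes and IFI6 are uncertain to that extent, and reads of RSAD2 and CMPK2 in the overlap may not have been told apart. The plot of shared words gives the same measure at 31, 50 and 75 bases.

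**Figure D3:**
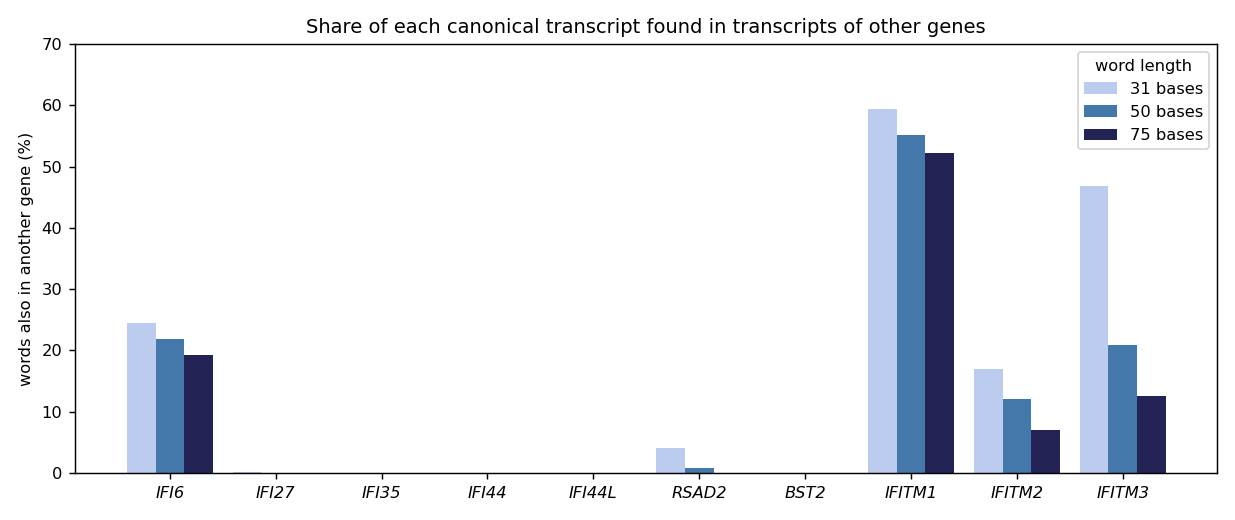
Share of each gene's canonical transcript, in percent of its overlapping words, that is also found in transcripts of other genes, at word lengths of 31, 50 and 75 bases. IFITM1 has the tallest bars at each length (59.4, 55.1 and 52.2%), and IFI35, IFI44 and BST2 have bars of 0.

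A separate search asked which genes also lie on the alternate sequences of GRCh38, second versions of some loci that the genome file carries beside the chromosomes. All 575 of the 31-base words of the exons of IFI27 (100%) also occurred on 1 or more of its 261 alternate sequences, against 0 to 4.245% for the other 9 genes. The libraries behaved differently for IFI27 than for any other member. Proliferating and ruxolitinib libraries held 0 reads of it, the palbociclib libraries 0, 4 and 0, and the DMSO libraries 3, 3 and 52, or 2.97, 3.55 and 60.1 normalised counts. The 52 reads were all in library A118, so the DMSO level rests on 1 library. Its mean over all libraries, 5.92, was below the minimum of 10 used for testing, and it entered no test. The sequences to which the authors aligned their reads are not given in the sources used here, and what the alternate copy does to the count of IFI27 was not tested. The same single-library behaviour in its neighbours is described in the closing section.

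Differences were tested with limma on log2(normalised count + 1), fitted over all 12 libraries and adjusted by Benjamini-Hochberg over 11242 genes, and called at an adjusted p under 0.05. Fold changes below are on that scale, which understates changes of low genes. IFI44L, RSAD2 and BST2 passed the filter on low values only through the DMSO libraries, since their mean over the other 9 was 8.38, 5.86 and 7.14. In comparisons with DMSO they had to differ once they were in the test. As to these 3, the counts of genes called in those comparisons and their adjusted p-values there carry no weight. The same holds for the bars of the members in the plot of gene lists.

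Irradiation with DMSO against proliferating cells came first. Of 9 tested genes, 8 were called higher and 0 lower, and the groups of those 8 did not overlap. The 8 include IFI44L, RSAD2 and BST2, which were in the test only through DMSO. Besides them, IFI6, IFI35, IFI44, IFITM1 and IFITM3 were called higher. Among all tested genes 33% were called higher and 39.3% lower, and 34.3% had every DMSO library above every proliferating one. In bulk RNA, more cells that express a gene and more RNA per cell cannot be told apart.

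IFI6 read 91.3, 102 and 89.5 normalised counts in proliferating libraries and 10410.1, 9241 and 9204 in DMSO libraries. The ratio of the group means was 102, and the spread inside either group was small beside it. Its log2 fold change was 6.66 (SE 0.24, adjusted p = 1.07e-12), the 7th largest of all tested genes. IFI44L went from 1.04, 2.22 and 3.81 to 419, 417 and 382, a log2 fold change of 7.01 (SE 0.35, adjusted p = 5.37e-11). With only 7 reads in the proliferating libraries together, the ratio of its summed reads was 169, with a counting interval from 81.9 to 422. Its neighbour IFI44 began higher, at 17.6, 24.4 and 22.9, and reached 616, 608 and 509.9, a log2 fold change of 4.68 (SE 0.23, adjusted p = 6.15e-11). The DMSO counts of IFI44L stayed below those of IFI44.

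RSAD2 had 0 reads in each of the 3 proliferating libraries and 225, 214 and 207 normalised counts in DMSO libraries. Against a floor of 3 reads per library it was at least 69.5-fold higher. BST2 had 1.04, 0 and 0.952 normalised counts in proliferating cells, 2 reads in all, and 189, 206 and 191 with DMSO. The ratio of its summed reads was 284, with a counting interval from 78.3 to 2352. Both genes were thus at or near 0 reads in proliferating fibroblasts at this depth. Their adjusted p-values from limma were 9.30e-08 and 6.23e-10.

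The 3 IFITM genes, which sit in one cluster, did not move alike. IFITM1 rose from 339, 427 and 336 to 2880.4, 2923 and 3046 normalised counts, a log2 fold change of 3.01 (SE 0.17, adjusted p = 3.43e-10). IFITM3 rose from 2475, 2902 and 2321 to 7418, 7743 and 7039, a log2 fold change of 1.53 (SE 0.12, adjusted p = 8.02e-09). IFITM2 read 1339.6, 1518 and 1369 in proliferating libraries and 1316, 1455 and 1452 in DMSO libraries, and these ranges overlap. Its log2 difference was -0.00055, with a 95% interval from -0.20 to 0.20 and an adjusted p of 0.996. Scaling every library to the same total moved the median of all tested genes by 0.23 in this comparison and put IFITM2 at 0.23 (adjusted p = 0.0421), so its difference was no larger than that shift. IFI35 rose from 86.1, 119 and 112 to 336, 365 and 354, a log2 fold change of 1.74 (SE 0.24, adjusted p = 7.05e-06).

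Per kilobase of canonical transcript, IFITM3 and IFI6 were the most abundant of the 10 in DMSO cells, at 12111 ± 577 and 11845 ± 845 normalised counts per kb (SD, n = 3), which do not differ beyond their spread. IFITM1 followed at 4416 ± 129, then IFITM2 at 1399.5 ± 78.7, IFI44 at 344 ± 35.1, IFI35 at 297 ± 12.4, BST2 at 195 ± 9.30, IFI44L at 69.6 ± 3.58, RSAD2 at 63.2 ± 2.61 and IFI27 at 30.6 ± 45.3. The order in proliferating cells was different: IFITM3 led at 4199 ± 493, ahead of IFITM2 at 1401 ± 95.2, IFITM1 at 550.1 ± 77.2 and IFI6 at 116 ± 8.34. Below these came IFI35 at 89.4 ± 14.6, IFI44 at 12.9 ± 2.106, BST2 at 0.663 ± 0.575 and IFI44L at 0.404 ± 0.239, the last of which overlap. IFI6 thus moved from below IFITM2 to level with IFITM3.

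Palbociclib was then compared with DMSO in senescent cells. All 9 tested genes were called lower, with no overlap between the groups, where 22.3% of all tested genes were called lower and 25.7% had every palbociclib library below every DMSO library. Besides IFI44L, RSAD2 and BST2, in the test only through DMSO, these were IFI6, IFI35, IFI44, IFITM1, IFITM2 and IFITM3. The falls ranged from IFITM2 at -0.38 (SE 0.09, adjusted p = 0.00351) to RSAD2, whose value depended on library A119.

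IFI6 read 444, 993 and 1156 normalised counts with palbociclib, against 9204 to 10410.1 with DMSO. Every palbociclib library was far below every DMSO library, and the log2 fold change was -3.59 (SE 0.24, adjusted p = 1.02e-08). IFI44 read 28.8, 63.5 and 56.0, a change of -3.59 (SE 0.23, adjusted p = 9.18e-09), and IFI44L read 9.96, 17.5 and 23.1, a change of -4.58 (SE 0.35, adjusted p = 5.03e-08). IFI35 read 49.8, 123 and 87.1, a change of -2.10 (SE 0.24, adjusted p = 3.79e-06). Among IFI6, IFI44 and IFI35, the change of IFI35 was the smallest. IFI44L was in the test only through DMSO, so its change is not ranked with theirs.

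RSAD2 read 0, 13.1 and 12.4 with palbociclib. The 0 was in library A119, and the log2 fold change of -5.23 (SE 0.72, adjusted p = 2.77e-05) became -3.97 (adjusted p = 1.17e-07) without that library. Without A120 it was -5.88 and without A121 -5.85. BST2 read 8.85, 17.5 and 27.5, a change of -3.50 (SE 0.42, adjusted p = 7.88e-06). Both genes were thus still detected in at least 2 palbociclib libraries.

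IFITM1 read 301, 441 and 584 with palbociclib, a change of -2.79 (SE 0.17, adjusted p = 5.56e-09). IFITM3 read 3045, 4529 and 4285, a change of -0.92 (SE 0.12, adjusted p = 1.10e-05), which left it at a higher count than any other member. IFITM2 read 895, 1209 and 1157 against 1316 to 1455 with DMSO, so that the groups were close but did not overlap.

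Library A119 was the lowest of the palbociclib libraries for 9 of the 10 genes, and for IFI27 it was level with A121 at 0 reads. A120 was the highest for 6 and A121 for 4. The calls of the 9 genes against DMSO held when A119 was left out, as they did when any other library was. As to IFI44L, RSAD2 and BST2, which were in the test only through DMSO, this carries no weight. The plot of changes shows the fitted differences with their intervals.

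**Figure D4:**
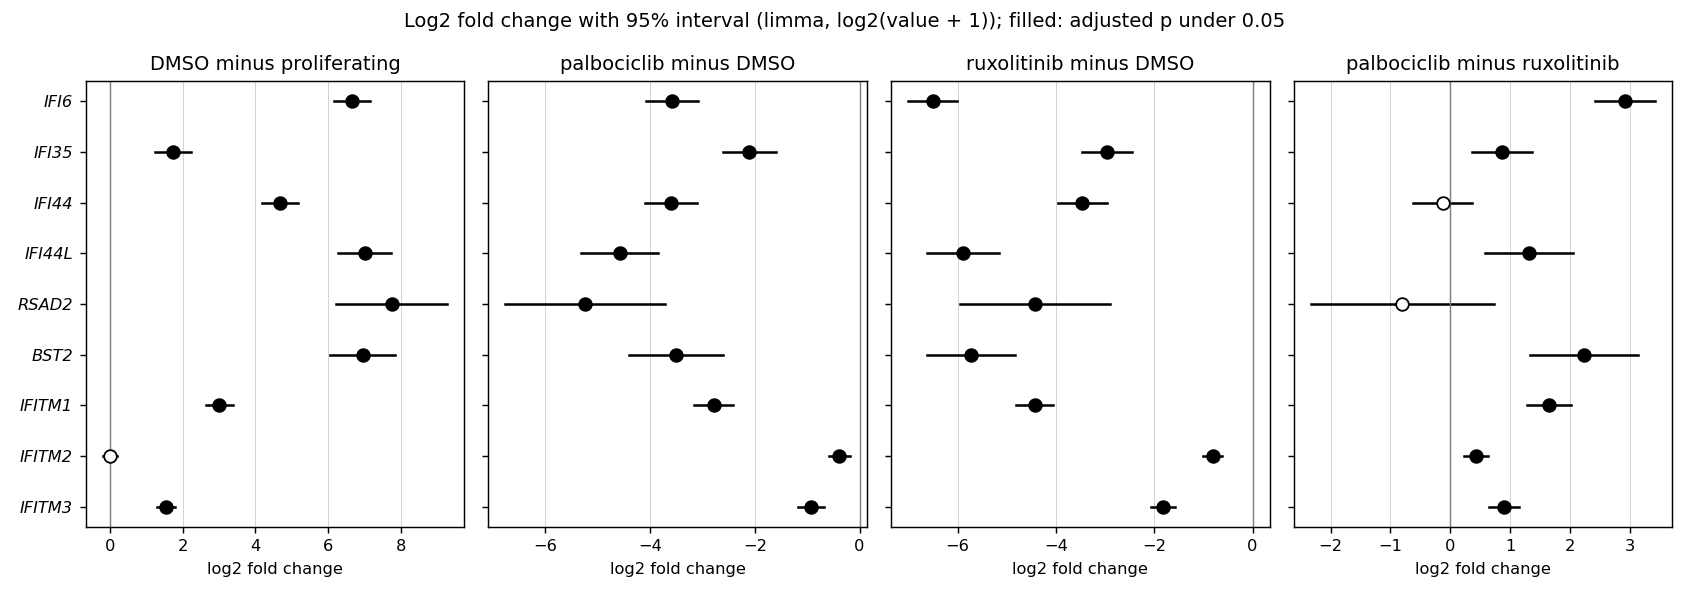
Log2 fold change of the 9 tested genes in 4 comparisons (horizontal axis, log2 scale; points are limma estimates and lines their 95% intervals), filled where the adjusted p is under 0.05. IFITM2 is the only open point in DMSO minus proliferating, and IFI44 and RSAD2 are the open points in palbociclib minus ruxolitinib. The RSAD2 estimate against proliferating cells, which had 0 reads, depends on the pseudocount and is no measure of fold.

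Ruxolitinib was compared with DMSO in the same way. All 9 tested genes were called lower, again with no overlap. Over the whole table this was uncommon, with 3.42% of tested genes called lower and 17% having every ruxolitinib library below every DMSO one. Here too the 9 include IFI44L, RSAD2 and BST2, which were in the test only through DMSO. The plot of gene lists shows each tested member beside the genes of other lists.

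IFI6 read 94.9, 117 and 103 normalised counts with ruxolitinib, a log2 fold change of -6.51 from DMSO (SE 0.24, adjusted p = 4.82e-11), the 4th largest fall of all tested genes. IFI44L read 6.94, 6.30 and 4.51, a change of -5.89 (SE 0.35, adjusted p = 9.22e-09), and IFI44 read 46.3, 58.5 and 49.6, a change of -3.47 (SE 0.23, adjusted p = 5.36e-08). IFI35 read 48.6, 46.8 and 37.9, a change of -2.96 (SE 0.24, adjusted p = 4.26e-07). The 3 libraries of each of these genes lay close together, unlike those of palbociclib.

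BST2 read 3.86, 1.80 and 2.71, a change of -5.73 (SE 0.42, adjusted p = 1.64e-07). RSAD2 read 10.0, 8.10 and 9.02, a change of -4.43 (SE 0.72, adjusted p = 0.00139). With a pseudocount of 0.1 in place of 1 the RSAD2 change was -4.56 but its adjusted p was 0.0718. IFITM1 read 139.7, 117 and 152, a change of -4.44 (SE 0.17, adjusted p = 1.15e-10). IFITM3 read 2185, 1996 and 2089, a change of -1.82 (SE 0.12, adjusted p = 2.35e-08), and IFITM2 read 842, 764 and 795, a change of -0.81 (SE 0.09, adjusted p = 4.08e-05). IFITM2, which was not called between DMSO and proliferating cells with the scaling of the deposited counts, was thus below DMSO with each inhibitor.

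The inhibitors were also compared with each other directly. Of the 9 genes, 7 were called higher with palbociclib than with ruxolitinib and 0 lower, against 22.8% of all tested genes called higher and 17.6% lower. With the added demand of a change of at least 2-fold, 4 of the 7 remained, against 0.729% of all tested genes. IFI6 differed most, at 444 to 1156 normalised counts with palbociclib and 94.9 to 117 with ruxolitinib, a log2 difference of 2.92 (SE 0.24, adjusted p = 1.41e-07). BST2 differed by 2.23 (SE 0.42, adjusted p = 0.000651), IFITM1 by 1.65 (SE 0.17, adjusted p = 2.56e-06) and IFI44L by 1.31 (SE 0.35, adjusted p = 0.00693). These 4 are the ones past 2-fold. BST2 rested on 55 reads with palbociclib against 10 with ruxolitinib, and IFI44L on 51 against 21. Under the alternatives the difference ranged from 1.48 to 2.88 for BST2 and from 0.96 to 1.92 for IFI44L. IFITM3 differed by 0.90 (SE 0.12, adjusted p = 1.93e-05), IFI35 by 0.86 (SE 0.24, adjusted p = 0.00887) and IFITM2 by 0.43 (SE 0.09, adjusted p = 0.00191). The IFITM2 difference was 0.23 (adjusted p = 0.0608) when libraries were scaled to the same total, which moved the median gene by -0.20.

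IFI44 and RSAD2 were not called between the inhibitors. For IFI44 the ranges overlapped, at 28.8 to 63.5 with palbociclib and 46.3 to 58.5 with ruxolitinib, and the difference was -0.13 (95% interval -0.62 to 0.37, adjusted p = 0.696). It was 0.21 without library A119 and 0.16 under quantile normalization. For RSAD2 the difference was -0.80 (95% interval -2.33 to 0.73, adjusted p = 0.396), and without library A119 it was 0.46 (adjusted p = 0.286). These intervals still allow differences in either direction, so similar levels are not shown.

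The inhibitor-treated senescent cells were then set against proliferating cells. With palbociclib 6 of the 9 tested genes were called higher and 1 lower, where 35.2% and 38.6% of all tested genes were. IFI6 was higher by 3.07 on the log2 scale (SE 0.24, adjusted p = 8.54e-09), IFI44 by 1.09 (SE 0.23, adjusted p = 0.000571) and IFITM3 by 0.61 (SE 0.12, adjusted p = 0.000192). IFI44L had 51 reads against 7, a ratio of 7.22 with a counting interval from 3.26 to 18.9, and BST2 55 reads against 2, a ratio of 27.2 with an interval from 7.19 to 230.6. RSAD2 was called, at an adjusted p of 0.00502 from limma, although library A119 was at 0 like the proliferating libraries. Against 3 reads per library it was at least 2.75-fold higher over the group. IFITM2 was lower, by -0.38 (SE 0.09, adjusted p = 0.00166), and would not count under a 2-fold minimum, which 11.5% of all tested genes met.

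IFI35 and IFITM1 were not called in that comparison, with overlapping ranges. Their differences were -0.37 (95% interval -0.87 to 0.14, adjusted p = 0.172) and 0.22 (95% interval -0.15 to 0.59, adjusted p = 0.255). Single libraries decided both calls: IFI35 was called lower without library A120, at -0.66 (adjusted p = 0.0077), and IFITM1 higher without library A119, at 0.47 (adjusted p = 0.00351). IFITM1 was at -0.003 without library A121.

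With ruxolitinib, 4 of the 9 genes were called higher than in proliferating cells and 4 lower, near the 32.6% and 39.5% of all tested genes. IFI6 overlapped its proliferating level, 94.9 to 117 against 89.5 to 102, with a difference of 0.15 (95% interval -0.35 to 0.65, adjusted p = 0.578). IFI44 stayed higher, by 1.22 (SE 0.23, adjusted p = 0.000222), and RSAD2 was at least 2.92-fold higher than the floor of 3 reads per library (adjusted p = 0.000633). IFI44L had 21 reads against 7, a ratio of 2.49 with a counting interval from 1.02 to 6.93, and was called at an adjusted p of 0.00888, though quantile normalization left it at -0.001. BST2 rested on 10 reads against 2, a ratio of 4.15 with an interval from 0.884 to 38.9. It was called by limma (1.22, adjusted p = 0.0166) but not by edgeR (1.93, adjusted p = 0.0804) or DESeq2 (2.12, adjusted p = 0.0834). It was not called by limma with a pseudocount of 5 (0.46, adjusted p = 0.139) or quantile normalization (0.24, adjusted p = 0.671) either, nor without library A126 (0.89, adjusted p = 0.0679) or A122 (1.02, adjusted p = 0.0679).

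Of the 4 genes called lower, IFITM1 and IFI35 were so by at least 2-fold, as were 9.83% of all tested genes. IFITM1 was at 117 to 152 with ruxolitinib against 336 to 427 in proliferating cells, lower by -1.43 (SE 0.17, adjusted p = 2.09e-06). IFITM2 was lower by -0.81 (SE 0.09, adjusted p = 1.14e-06) and IFI35 by -1.23 (SE 0.24, adjusted p = 0.000228). IFITM3 was lower by -0.29 (SE 0.12, adjusted p = 0.0334), a call lost in 10 of the alternatives, with -0.09 (adjusted p = 0.53) when libraries were scaled to the same total, which moved the median gene by 0.20. IFITM1, IFITM2 and IFI35 thus read lower in ruxolitinib-treated senescent cells than in cells never irradiated, while IFI44 and RSAD2 read higher.

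Other genes of the pathway were read from lists chosen by name. Of 7 receptor and ISGF3 genes, 4 were called higher with DMSO than in proliferating cells and 1 lower, beside 33% and 39.3% of all tested genes. STAT2 rose by 1.47 (SE 0.08, adjusted p = 1.27e-10) and IRF9 by 2.13 (SE 0.09, adjusted p = 1.23e-11), and each fell with either inhibitor. With palbociclib the changes were -0.50 and -1.60, and with ruxolitinib -0.66 and -2.36. IRF9 read 302, 303 and 301 with ruxolitinib against 333, 394 and 339 in proliferating cells, a difference of -0.23 (adjusted p = 0.0351). STAT2 stayed higher with ruxolitinib than in proliferating cells, with means of 2198 and 1259 and a difference of 0.81 (adjusted p = 1.52e-07). The receptor chain IFNAR1 rose by 0.28 (SE 0.06, adjusted p = 0.000288) and the kinase JAK1 fell by 0.23 (adjusted p = 0.00837), a size equal to the 0.23 shift named above, while IFNAR2 and TYK2 were not called.

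The interferon genes themselves had few reads. Of 6 on the list, 4 are listed in the table and 0 reached the level needed for testing. IFNB1, which encodes interferon beta, had 0 reads in each proliferating library, 3 in each DMSO library, 0, 1 and 0 with palbociclib and 2, 3 and 0 with ruxolitinib, where counts of 3 or fewer give no usable fold. IFNA1 had 3, 5 and 0 reads in proliferating libraries and 8, 12 and 15 with DMSO. With palbociclib it had 13, 7 and 10 reads and with ruxolitinib 20, 13 and 14, so its senescent groups overlapped. Each senescent group lay above the proliferating libraries without overlap. The IFNA1 means were 13.2 (DMSO), 10.3 (palbociclib) and 13.3 (ruxolitinib) normalised counts against 2.89 in proliferating cells, a difference that was not tested. IFNG had 1 read in all, in library A118.

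Other interferon-stimulated genes were counted in the same way. Of 28 tested, 27 were called higher with DMSO than in proliferating cells, with a median of 2.91, beside 33% of all tested genes called higher. With palbociclib 28 were called lower than with DMSO (median -2.99) and with ruxolitinib 27 (median -2.78), beside 22.3% and 3.42% of all tested genes. OAS1 and CMPK2 passed the filter only through DMSO. The group means of OAS1 elsewhere were 0 (proliferating), 15.3 (palbociclib) and 0.514 (ruxolitinib). As to OAS1 and CMPK2, these counts and medians carry no weight. Between the inhibitors 13 were called higher and 6 lower with palbociclib, beside 22.8% and 17.6% of all tested genes. MX1, a GTPase that blocks viral nucleocapsids, was higher with palbociclib by 2.42 (SE 0.21, adjusted p = 3.83e-07), like IFI6. HERC5, the ligase that attaches ISG15, was lower by -2.78 (SE 0.34, adjusted p = 1.24e-05), OASL by -2.74 (SE 0.28, adjusted p = 2.13e-06) and IFIT2 by -1.21 (SE 0.17, adjusted p = 4.10e-05). None of the 9 tested members was called in that direction.

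Relatives and partners of the members gave a mixed picture. Of 6 tested, 2 were called higher and 1 lower after irradiation, where 33% and 39.3% of all tested genes were. Relative to DMSO 4 were called lower with each inhibitor, beside 22.3% of all tested genes with palbociclib and 3.42% with ruxolitinib. NMI, the partner of IFI35, fell where IFI35 rose: it read 201, 187 and 208 normalised counts in proliferating libraries and 119.8, 149 and 109.9 with DMSO, a change of -0.66 (SE 0.16, adjusted p = 0.00174). CMPK2, the divergent neighbour of RSAD2 and a mitochondrial nucleotide kinase, went from 4.15, 4.44 and 1.90 to 94.0, 108 and 106, a change of 4.58 (SE 0.37, adjusted p = 1.87e-08 by limma). CMPK2 passed the filter only through DMSO, since its group means elsewhere were 3.50 (proliferating), 5.90 (palbociclib) and 3.95 (ruxolitinib). Its calls against DMSO therefore carry no weight. It is counted both here and among the other interferon-stimulated genes. The change of CMPK2 was -3.97 with palbociclib and -4.39 with ruxolitinib. IFI16, a DNA sensor, was not called after irradiation (0.08, adjusted p = 0.308) but fell by 1.21 with palbociclib and by 1.38 with ruxolitinib. IFI30, a lysosomal thiol reductase, rose by 4.43 (SE 0.21, adjusted p = 4.05e-11).

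**Figure D5:**
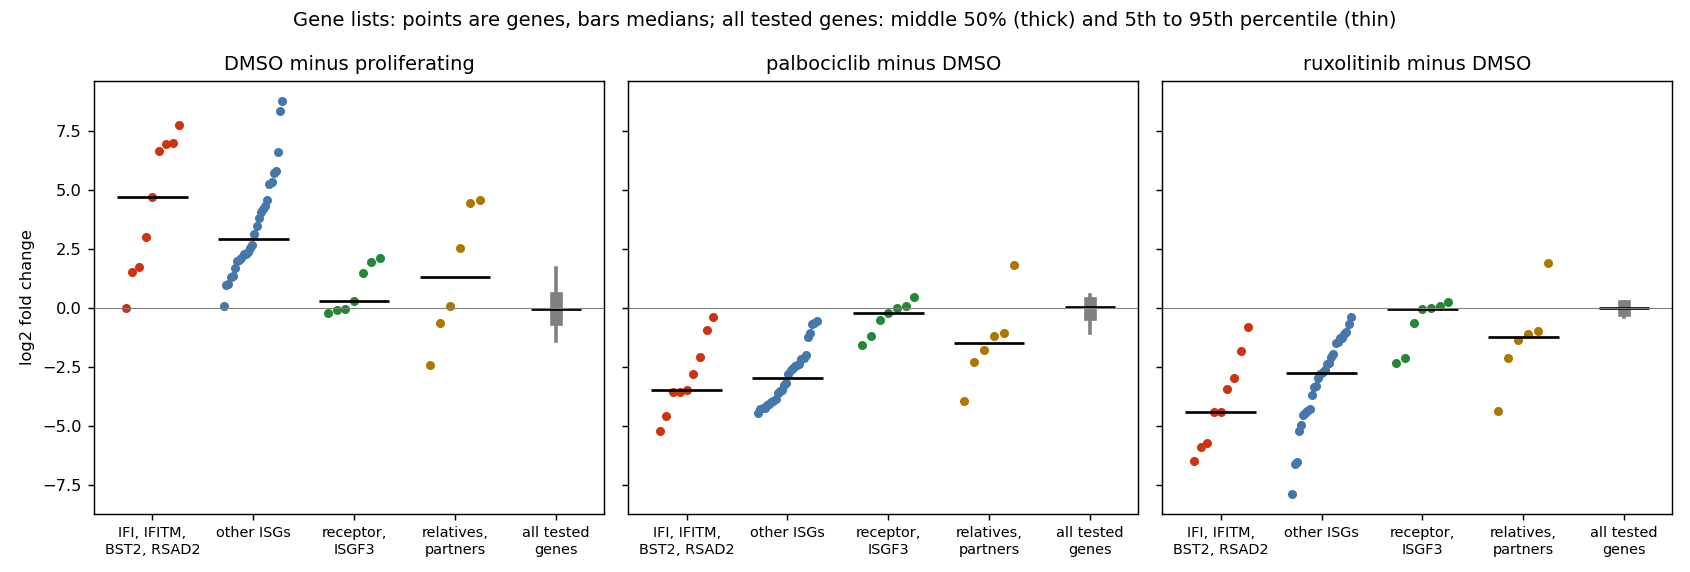
Log2 fold changes (vertical axis) of the genes of 4 lists in 3 comparisons; points are genes, black bars medians, and the grey bar at the right gives the middle 50% (thick) and the 5th to 95th percentile (thin) of all 11242 tested genes. Each of the 9 members lies below 0 in both inhibitor comparisons; IFI44L, RSAD2 and BST2 are among them only through their DMSO libraries, so their bar is not to be compared with those of the other lists.

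The profile of the 9 tested genes over the 12 libraries was summarised as the mean of their log2 values, each scaled to mean 0 and SD 1. Among 11222 other tested genes, the most similar profiles by Pearson's r were those of IRF9 (0.994), PARP10 (0.987), MX2 (0.984), MX1 (0.980) and PML (0.979). These are descriptions over 12 libraries in 4 groups that share the same contrasts. IFI44L, RSAD2 and BST2 entered the profile only through their DMSO libraries, so its height with DMSO was partly fixed by the filter. The same limit applies to the likeness among members. Among the members, IFITM2 was least like the mean of the others (0.502), followed by RSAD2 (0.822), and IFITM3 was the most like it (0.972).

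The fibroblast label was checked on 8 markers, whose summed level was 403689 to 847555 normalised counts per library and lowest with DMSO (403689 to 414316), with 0 markers at 0. Most of this sum was COL1A1 and COL1A2, with DMSO means of 165728 and 126871. Of the 8, 6 were called lower with DMSO than in proliferating cells, while DCN and THY1 were called higher. Among all tested genes 39.3% were called lower and 33% higher. The 7 leukocyte markers summed to 3.33 to 8.30 in proliferating libraries, 37.0 to 50.5 with DMSO, 17.8 to 26.3 with palbociclib and 29.8 to 37.0 with ruxolitinib, with HLA-DRA at 0 in every library. The 3 endothelial markers summed to 5.55 to 8.57 in proliferating libraries, 21.3 to 40.5 with DMSO, 21.0 to 33.9 with palbociclib and 28.0 to 50.4 with ruxolitinib. The 4 epithelial markers, most of whose sum was KRT19, gave 99.0 to 143, 266 to 309, 376 to 501 and 297 to 348 in the same order. The endothelial and epithelial sums were higher in every irradiated group than in proliferating cells. The leukocyte sum was highest with DMSO, as the members were, but stood higher with ruxolitinib than with palbociclib or in proliferating cells. The part of these markers in the results was not tested. Recovered reads per library over the listed genes numbered 14106799 to 21762412, lowest in the DMSO group. Within no group did a pair of libraries agree within counting noise.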

How the data were processed

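The authors deposited 1 table of normalised counts, a signal in which each library's read counts were divided by 1 factor; every one of the 160380 values above 0 was a whole multiple of the worth of 1 read within a tolerance of 0.01, and whole reads were recovered from it. Per the submitters' processing notes, Trimmomatic 0.38.1, HISAT2 2.2.1, featureCounts 2.0.3 and DESeq2 2.11.40.8 were used, with hg38 (GRCh38). The annotation, strand setting and read length are not given in the sources used here. Columns carry a group and a library number, and were assigned to groups only.

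Genes with a mean of at least 10 were tested on log2(normalised count + 1) by limma (3.58.1, under R 4.3.3), with 4 group means over 12 libraries, a variance trend and Benjamini-Hochberg adjustment, called under 0.05. The recovered reads were also tested with edgeR 4.0.16 and DESeq2 1.42.0. The script was tested on simulated data. Other alternatives were pseudocounts of 0.1 and 5, no filter, a mean of at least 50, 3 other scalings, no variance trend, only the 2 groups compared, a 2-fold minimum and leaving out each library. Exact permutation of 3 against 3 libraries cannot go below a p of 0.1, so none was run. Counting intervals are exact binomial at 95% and cover counting error only.

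The table ends at Entrez gene number 140467, and genes with higher numbers were not analysed here, so read totals cover listed genes only. The members, lists and alternatives were chosen with earlier results of these data known. All members are named; from other lists, genes are given as counts and named as examples, and the 5 genes with the most similar profile are named. Genes of the lists absent from the table (IFNE, IFNL1, SAMD9L, IFITM5 and IFITM10) were not analysed here. Transcript words, coordinates and alternate sequences come from GENCODE 44 and hg38, promoters from RefSeq.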

Additional observations from a re-analysis of the deposited data

How the results depend on the processing

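No paired analysis was possible because the columns carry no replicate number. Counts of members called kept their direction and stayed within 1.5 times of the reported count under every alternative in the comparisons of DMSO with proliferating cells (8 to 9 higher), palbociclib with DMSO (7 to 10 lower) and ruxolitinib with DMSO (8 to 10 lower). In the main fits 33%, 22.3% and 3.42% of all tested genes were called in these directions, in the same order. These counts include IFI44L, RSAD2 and BST2, which passed the filter only through DMSO. As to these 3, the steadiness of the counts carries no weight. A count of 10 includes IFI27, whose DMSO level rests on library A118. A 2-fold minimum left 4 of 7 higher with palbociclib than ruxolitinib, 0 of 1 lower with palbociclib than proliferating and 2 of 4 lower with ruxolitinib than proliferating. Of all tested genes, 0.729%, 11.5% and 9.83% met the same demands, in the same order. Fitting only the 2 groups compared left 3 of 6 higher with palbociclib and 1 of 4 higher with ruxolitinib than in proliferating cells, where only 6 members passed the filter. Quantile normalization left 2 of the latter 4. Leaving out 1 library gave 6 to 7 higher and 1 to 2 lower with palbociclib than proliferating, 3 to 4 of each with ruxolitinib, and the reported counts elsewhere. In the main fits against proliferating cells, 35.2% of all tested genes were called higher and 38.6% lower with palbociclib. With ruxolitinib these shares were 32.6% and 39.5%. The shares under the other settings are not given here, so these counts are not read against them.

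Of 1235 values for single genes, 1202 kept direction and side of the threshold, 18 lost and 3 gained the call, and 12 turned direction. IFITM2 in DMSO against proliferating cells turned to 0.23 (same total), 0.16 (same upper quartile), 0.15 (quantiles), 0.0595 (edgeR) and 0.0603 (DESeq2), and ranged from -0.0359 to 0.0544 with 1 library left out, above 0 without A116 or A126. IFI44 between inhibitors turned to 0.16 (quantiles), and ranged from -0.34 to 0.21 with 1 library left out and RSAD2 from -1.45 to 0.46, both above 0 without A119 alone. IFITM1 with palbociclib against proliferating cells ranged from -0.00301 to 0.47, below 0 without A121 alone, and IFI44L with ruxolitinib was at -0.00102 (quantiles). The cause was not tested. Without the filter IFI27 was called higher with DMSO (3.37, adjusted p = 0.00304 by limma) and lower with palbociclib and ruxolitinib (adjusted p = 0.0283 and 0.0470), on 52 reads of library A118. Low reads limit what can be seen of BST2, RSAD2 and IFI44L outside DMSO.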

Other observations

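The burst of IFI27 reads in 1 DMSO library had counterparts in its neighbours on chromosome 14. IFI27L2, a relative of IFI27, had 112 reads in library A117 and 0 to 5 in each of the other 11. IFI27L1, the other relative, had 53 reads in proliferating library A126, 49 in palbociclib library A120 and 37 in ruxolitinib library A123, and 0 to 2 in every other library. DDX24, an RNA helicase gene next to them, had 135 reads in library A117 against 11 and 13 in the other DMSO libraries. The libraries named come from all 4 groups.

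A search made after these values were seen counted genes for which 1 library of a group held at least 30 reads and at least 10 times the normalised count of each of the other libraries of the group. It found 26 of 16383 genes (0.159%), spread over all 12 libraries with 1 to 5 each. The exons of 25 of these 26 genes lay, by at least 50% of their 31-base words, on alternate sequences of the genome file as well as on the chromosomes, whereas this held for 4.81% of 16064 listed genes. IFI27, IFI27L1, IFI27L2 and DDX24 were all at 100%. The remaining gene was ASMTL, at 0. How reads on alternate sequences were counted by the authors is not given in the sources used here, and its part in these values was not tested. Of the 10 interferon-induced genes, IFI27 alone stood above 50% by this measure.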
